A study of Homo sapiens with 12 samples.

Results

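The 46 listed genes of the human nuclear receptor superfamily were followed through 12 RNA-seq libraries of the human cell line MCF10AT, which descends from non-tumorigenic MCF10A mammary epithelium and carries an activated RAS gene. Family membership was the rule, with no measured value in it, but the family was chosen with earlier results of these data known. Its counts of called genes, set beside the share over all genes, are therefore descriptive. The genes were matched by symbol among the 62702 genes counted. Of the 46, 31 had enough counts to be tested and 15 did not. The groups were, with 3 libraries each, cells carrying hPRLrL/hPRLrI I-tail deleted with prolactin (PRL) or untreated, and cells carrying hPRLrL/hPRLrI with PRL or untreated. hPRLrL and hPRLrI are the long and the intermediate form of the human prolactin receptor. The genotype labels name both forms in every group, with the I-tail deleted where stated. All cells spent 24 h without serum in medium with albumin, and treated cells then received PRL at 250 ng/ml for 2 h. The growth medium before that held horse serum and hydrocortisone, a ligand of the glucocorticoid receptor. The labels call the libraries of a group biological replicates but do not say whether they came from separate cultures, or whether the cells were single clones or pools, so p-values measure the spread between these libraries.

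Nuclear receptors are transcription factors with a DNA-binding domain of paired zinc fingers and a pocket that, in many members, holds a small lipophilic ligand. Steroid receptors bind DNA mostly as homodimers, whereas the receptors for retinoic acid, vitamin D, thyroid hormone, oxysterols and fatty acids share the retinoid X receptors as dimer partners. In the mammary gland, estrogen, progesterone and glucocorticoid receptors act beside the prolactin receptor, a cytokine receptor that signals through JAK2 and STAT5.

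Depth was 36120808 to 57324865 counts per library. PRLR, the receptor gene, stood at 3133 to 3761 CPM in deleted PRL, 3455 to 3655 CPM in deleted untreated, 3099 to 3959 CPM in intact PRL and 3220.4 to 3503 CPM in intact untreated libraries (CPM, here after TMM scaling). A gene count does not show the I-tail and so checks no label. CISH, a STAT5 feedback target, stood at 54.3 to 70.7 CPM in PRL libraries, against 3.18 to 5.27 CPM in untreated libraries. All 8 epithelial markers passed the count filter, with a summed level of 1842 to 10547 CPM. Of the leukocyte, fibroblast and endothelial markers, 2 of 8, 5 of 7 and 3 of 5 passed, with sums of 24.4 to 39.5, 424 to 618 and 1.22 to 3.30 CPM. MS4A1 was at 0, and each of these sums overlapped between PRL and untreated libraries. In bulk RNA, fewer cells of a type and less RNA per cell cannot be told apart.

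Per kilobase of exon, the most abundant receptor transcripts were NR1H2 (the oxysterol receptor LXR beta), ESRRA (the estrogen-related receptor alpha, an orphan receptor) and NR2F6 (the orphan receptor EAR2), with medians over the 12 libraries of 72.2, 43.8 and 40.7 CPM per kb. RARG, a retinoic acid receptor, followed at 27.0 CPM per kb. RXRB, RXRA and the fatty acid receptor PPARD each had a median of 22.3 CPM per kb. NR1D1, the heme-binding clock repressor REV-ERB alpha, had a median of 21.8, the thyroid hormone receptor THRA 18.1, the retinoic acid receptor RARA 17.4 and the vitamin D receptor VDR 15.2 CPM per kb. A middle group held NR1H3 (LXR alpha, 12.7 CPM per kb), the orphan receptors NR2F2 and NR2F1 (8.82 and 3.92), the glucocorticoid receptor NR3C1 (3.58), PPARG (2.27), NR1D2 (2.18), the orphan receptor NR4A2 (1.48) and PPARA (1.45). Medians lay under 1 CPM per kb for NR2C1 (0.682), NR2C2 (0.439), THRB (0.437), NR6A1 (0.369), NR4A1 (0.213), NR1I3 (0.115), RORA (0.0975), NR4A3 (0.0957), ESRRB (0.0695) and the mineralocorticoid receptor NR3C2 (0.0598). HNF4A and the estrogen receptor ESR1 were lowest among the tested genes, at 0.00908 and 0.00723 CPM per kb, and had counts in 9 and 11 of the 12 libraries.

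The ranges over libraries overlapped in all 30 pairs of neighbours in this order. Within libraries, the upper gene stood above the lower one in every library for 7 pairs, namely NR1H2 over ESRRA, NR2F6 over RARG, RARG over RXRB, NR1H3 over NR2F2, NR2F2 over NR2F1, PPARA over NR2C1 and NR2C1 over NR2C2. THRA stood above RARA per kilobase in 6 of 12 libraries, and these were the 6 untreated ones. THRA was the steadiest of these genes, at 109.7 to 147 CPM (1.34-fold between the highest and the lowest library). NR1D1 ranged 5.55-fold, with 30.5 to 169 CPM.

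**Figure D1:**
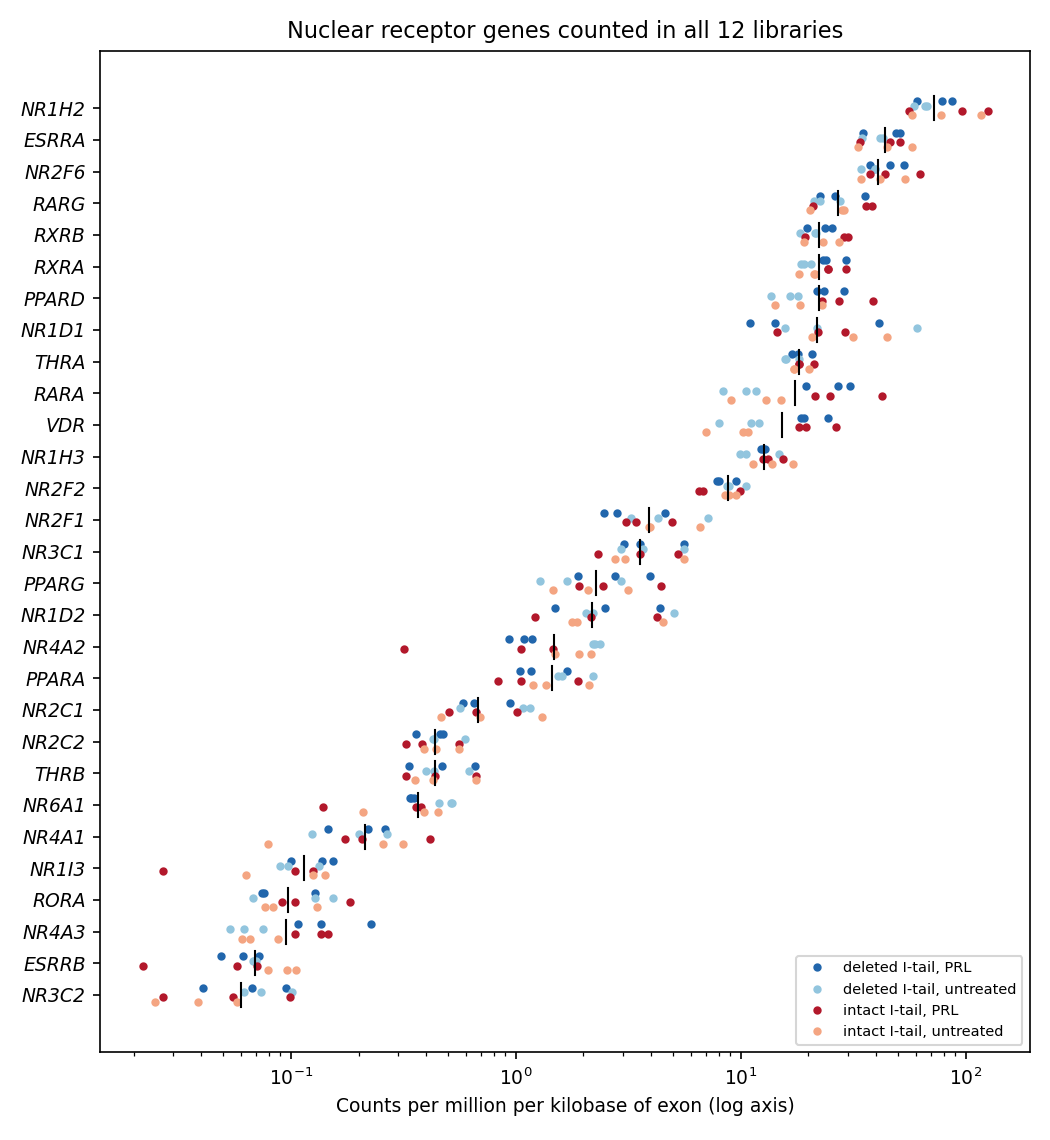
Level of the 29 nuclear receptor genes with counts in all 12 libraries, in CPM per kilobase of exon on a log axis; each point is 1 library, coloured by group, and the black line is the median. NR1H2 is highest with a median of 72.2 and NR3C2 lowest with 0.0598, and for RARA and VDR the PRL libraries lie to the right of the untreated ones.

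The 15 genes below the count filter include receptors best known from other tissues or from hormone-dependent breast cells. The progesterone receptor PGR, the xenobiotic receptor NR1I2, RXRG, NR2E1, NR5A2 and NR0B1 had 0 counts in all 12 libraries, which allows a level of up to 0.0521 to 0.0897 CPM per library (a count of 3, counting error only). The estrogen receptor ESR2 had 24 counts summed over all libraries, the steroidogenic factor NR5A1 21, the retinoic acid receptor RARB 11, NR2E3 6, RORB 5, HNF4G 4, ESRRG 3, NR0B2 2 and the bile acid receptor NR1H4 1. Together with ESR1 at 0 to 0.359 CPM, the sex steroid receptors of the list were at or near 0, while the glucocorticoid receptor NR3C1 was counted at 21.2 to 51.5 CPM.

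The titles number the libraries 1 to 12, in 3 runs of 4 that each hold 1 library of every group. No label says whether a run marks a batch, a day or nothing. The 4 libraries of the first run had 24477 to 25200 genes with counts, the second run 19073 to 23119 and the third run 21761 to 23895. In the first run, 7 of the 31 tested receptor genes were higher in all 4 libraries than in any of the other 8 (12.8% of all tested genes were), and 5 were lower (13.6% were). NR3C1 had 48.2 to 51.5 CPM there, with 21.2 to 32.8 CPM in the second run and 27.9 to 33.6 CPM in the third. NR1D2, PPARG, PPARA, THRB, NR2F1 and NR2F2 were the other 6 higher ones, and NR1H2, NR2F6, RARG, ESRRA and RXRB were the lower ones. The glucocorticoid receptor, 2 of the 3 PPAR genes and REV-ERB beta thus stood high in the first run in every group, and the spread within a group for these genes includes that step. The summed epithelial markers also set the first run apart, but were lower there. Their sums were 1842 to 2250.1 CPM in the first run, 5809 to 6681 CPM in the second and 6502 to 10547 CPM in the third. The part of this in the receptor values was not tested. Sums of the leukocyte and fibroblast markers overlapped between the first run and the others, and the endothelial sum was 2.26 to 3.30 CPM in the first run and 1.22 to 2.00 CPM in the others. NR2C1 was the 1 receptor gene lower throughout the second run, at 3.03 to 3.80 CPM (2.21% of all tested genes were).

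**Figure D2:**
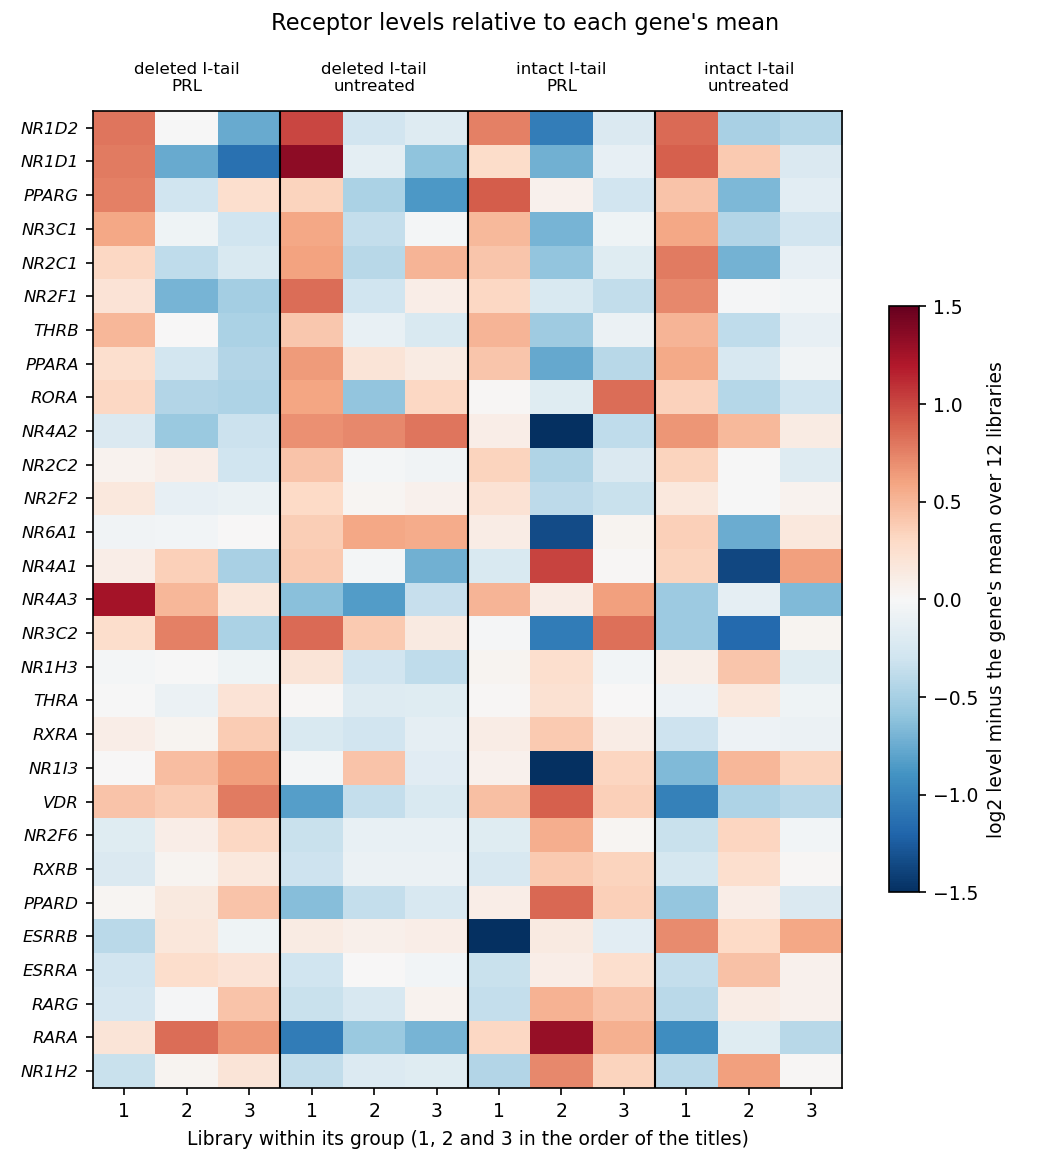
Level of the 29 receptor genes with counts in every library, as log2 CPM minus the gene's mean over 12 libraries; columns are libraries within their group, rows are ordered by their level in the first run relative to the rest, and colours stop at 1.5 on either side. NR1D2, PPARG and NR3C1 are high in library 1 of each group, whereas RARA and VDR follow PRL.

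PRL for 2 h raised RARA and VDR, and no other receptor gene passed the test averaged over both receptor pairs. Of the 31 receptor genes, 2 were called (edgeR quasi-likelihood test, Benjamini-Hochberg adjusted p under 0.05), where 0.119% of all tested genes were. RARA encodes retinoic acid receptor alpha (ENSG00000131759, GRCh38 chromosome 17, 40309192 to 40357643, plus strand, GENCODE 29). In cells with the deleted I-tail RARA had 92.6, 145 and 128 CPM after PRL, against 39.3, 55.1 and 50.1 CPM untreated. In cells with the intact I-tail it had 101, 201 and 118 CPM after PRL, against 42.7, 71.8 and 61.0 CPM untreated. All 6 PRL libraries lay above all 6 untreated ones, and the intact PRL library of the second run was the highest. The averaged log2 fold change of RARA was 1.30 ± 0.20 (SE; 2.46-fold; 95% interval 0.87 to 1.73; adjusted p = 0.0203). Within the title runs, the ratio of PRL to untreated RARA was 2.36, 2.64 and 2.55 with the deleted I-tail and 2.36, 2.80 and 1.93 with the intact one. The call on RARA was lost when any of 6 libraries was left out, namely deleted untreated 1, 2 or 3, deleted PRL 2 or 3, or intact untreated 3, with adjusted p up to 0.0928 and a log2 fold change of 1.12 to 1.40 over all 12 omissions.

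VDR encodes the receptor for the active form of vitamin D (ENSG00000111424, GRCh38 chromosome 12, 47841537 to 47943048, minus strand, GENCODE 29). With the deleted I-tail VDR had 108, 105 and 138 CPM after PRL, against 45.3, 62.7 and 68.6 CPM untreated. With the intact I-tail it had 110.4, 149.7 and 103 CPM after PRL, against 39.8, 58.3 and 60.9 CPM untreated. The PRL and untreated libraries did not overlap. The averaged log2 fold change of VDR was 1.09 ± 0.16 (2.13-fold; 95% interval 0.74 to 1.44; adjusted p = 0.0151), and its ratio within title runs was 1.67 to 2.77. Without deleted untreated library 1 or 2 the call on VDR was lost, with adjusted p up to 0.0571 and a log2 fold change of 1.01 to 1.16 over all omissions.

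**Figure D3:**
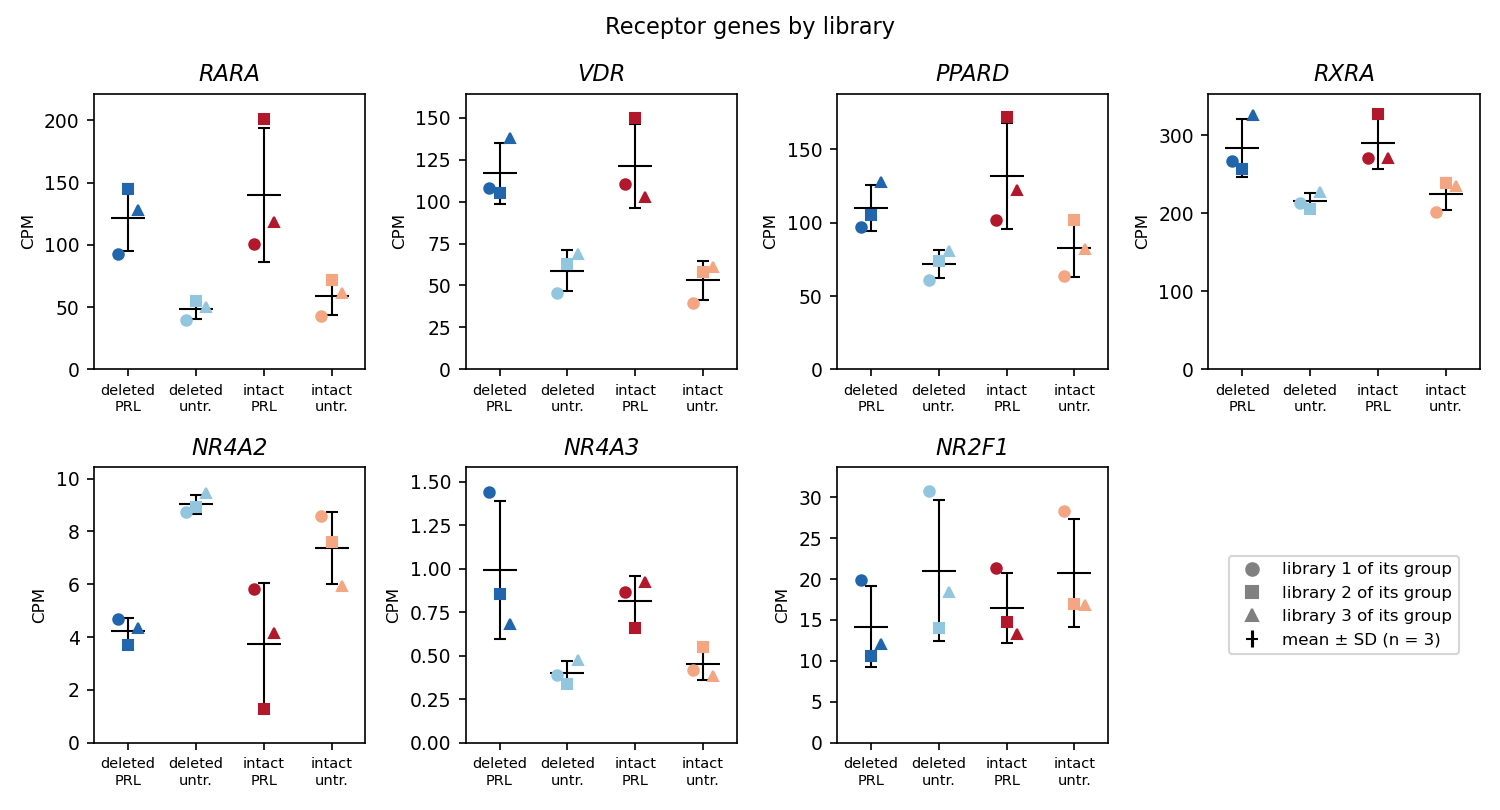
Normalised level (CPM) of 7 receptor genes in every library, by group; symbols mark library 1, 2 and 3 of a group and the bars are mean ± SD (n = 3). RARA and VDR are higher in all 6 PRL libraries than in all 6 untreated ones, NR4A2 is lower in the PRL libraries, and PPARD and NR2F1 overlap.

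Upstream sequence is shown for RARA, which was called, and for PPARD and NR4A3, whose unadjusted p lay under 0.05 and whose windows held a motif, so that short motifs of STAT, AP-1, CREB-type and nuclear receptor factors can be read in place. Sequences are the 250 bases before the start from RefSeq (build GRCh38.p14), and 41 of the 46 genes matched, all but VDR, NR4A2, NR2F6, HNF4G and NR0B2. The motifs were TTCNNNGAA (STAT-type), TGACTCA (AP-1), TGACG (core of the cyclic AMP element) and AGGTCA (nuclear receptor hexamer), on either strand. The first of 3 RARA windows (chr17:40308930-40309179, plus strand) held 1 AGGTCA, and the other 2, like both windows of RXRA, held none of the 4 motifs. The PPARD window (chr6:35342308-35342557, plus strand) held 1 TGACG and the NR4A3 window (chr9:99821635-99821884, plus strand) held 4. Capitals mark the matches, with CGTCA being TGACG on the other strand.
RARA: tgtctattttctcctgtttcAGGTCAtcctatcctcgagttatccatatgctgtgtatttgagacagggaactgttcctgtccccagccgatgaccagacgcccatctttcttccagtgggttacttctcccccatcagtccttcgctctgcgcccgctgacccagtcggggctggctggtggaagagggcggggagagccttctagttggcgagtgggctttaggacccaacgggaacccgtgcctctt
PPARD: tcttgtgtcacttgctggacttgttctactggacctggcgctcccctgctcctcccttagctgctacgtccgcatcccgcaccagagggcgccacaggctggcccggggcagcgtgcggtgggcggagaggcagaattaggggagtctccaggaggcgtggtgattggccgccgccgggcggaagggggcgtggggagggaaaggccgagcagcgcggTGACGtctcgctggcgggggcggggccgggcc
NR4A3: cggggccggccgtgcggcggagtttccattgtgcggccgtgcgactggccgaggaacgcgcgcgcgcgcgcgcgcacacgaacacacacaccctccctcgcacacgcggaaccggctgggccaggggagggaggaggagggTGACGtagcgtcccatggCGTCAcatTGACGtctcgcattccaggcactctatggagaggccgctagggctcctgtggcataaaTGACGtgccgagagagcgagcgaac
AGGTCA was present in 12.1% of all 35116 windows, TGACG in 21.2%, TTCNNNGAA in 6.57% and TGACTCA in 4.2%. Of the 96 windows of receptor genes, 15.6% held AGGTCA, 16.7% TGACG, 6.25% TTCNNNGAA and 4.17% TGACTCA. The STAT-type letters were found at ESR1, ESRRB, NR3C1 and RARB, of which RARB was not tested and the others were not called for PRL. A match is a description of letters and no evidence of binding.

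RXRA and PPARD did not pass the adjusted test. RXRA encodes a shared dimer partner of RARA and VDR, and PPARD a fatty acid receptor that also pairs with retinoid X receptors. At an unadjusted p under 0.05, 6 of the 31 receptor genes stood out for averaged PRL (3.81% of all tested genes did), namely RARA, VDR, PPARD, NR4A3, NR4A2 and RXRA. PPARD had 97.2, 105 and 128 CPM after PRL with the deleted I-tail, against 61.1, 74.0 and 80.4 CPM untreated. It had 102, 172 and 122 CPM after PRL with the intact I-tail, against 63.6, 102 and 81.8 CPM untreated. The PRL and untreated ranges overlapped, and the log2 fold change of PPARD was 0.64 ± 0.16 (1.56-fold; adjusted p = 0.354). Within every title run, PPARD was higher in the PRL library than in the untreated library with the same I-tail, 1.42- to 1.68-fold. No label calls these libraries pairs. RXRA had 267, 257 and 326 CPM after PRL with the deleted I-tail, against 213, 205 and 227 CPM untreated. It had 271, 327 and 270.2 CPM after PRL with the intact I-tail, against 201, 238 and 235 CPM untreated. The 6 PRL libraries did not overlap the 6 untreated ones, with a log2 fold change of 0.38 ± 0.12 (95% interval 0.13 to 0.63; adjusted p = 0.692). RARA, VDR, NR4A3 and RXRA were thus 4 of 31 genes without overlap on the higher side (0.441% of all tested genes), and NR4A2 was 1 on the lower side (0.238%).

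The NR4A receptors are encoded by immediate early genes of a subfamily without a classical ligand pocket, and none of the 3 passed the adjusted test. NR4A2 (NURR1) had 4.67, 3.69 and 4.33 CPM after PRL with the deleted I-tail, against 8.75, 8.91 and 9.44 CPM untreated. With the intact I-tail it had 5.83, 1.26 and 4.17 CPM after PRL, against 8.60, 7.61 and 5.92 CPM untreated. The highest PRL library and the lowest untreated one nearly met, and intact PRL library 2 stood far below the others. The log2 fold change of NR4A2 was -1.03 ± 0.27 (95% interval -1.62 to -0.44; adjusted p = 0.412). NR4A3 (NOR1), a low-abundance transcript, had 1.44, 0.857 and 0.682 CPM after PRL with the deleted I-tail, against 0.392, 0.338 and 0.477 CPM untreated. With the intact I-tail it had 0.864, 0.657 and 0.926 CPM after PRL, against 0.417, 0.552 and 0.382 CPM untreated. Its PRL and untreated ranges did not overlap, and its log2 fold change was 1.08 ± 0.29 (95% interval 0.46 to 1.71; adjusted p = 0.425). NR4A1 (NUR77) ranged from 0.579 to 3.02 CPM, both in the intact I-tail libraries of the second run, and stood at 0.18 ± 0.35 (adjusted p = 0.981).

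With a term for the title runs in the fit, 5 receptor genes were called for averaged PRL (1.12% of all tested genes), 3 higher and 2 lower. These were RARA (1.28 ± 0.09, adjusted p = 1.28e-06), VDR (1.11 ± 0.11, 6.78e-05) and PPARD (0.65 ± 0.10, 0.00294) on the higher side, and NR4A2 (-1.08 ± 0.22, 0.0232) and NR2F1 (-0.43 ± 0.09, 0.0337) on the lower side, by edgeR's quasi-likelihood test. NR2F1, the orphan repressor COUP-TFI, had 19.9, 10.6 and 12.1 CPM after PRL with the deleted I-tail, against 30.7, 14.0 and 18.4 CPM untreated. With the intact I-tail it had 21.3, 14.7 and 13.3 CPM after PRL, against 28.3, 17.0 and 16.8 CPM untreated. Its groups overlapped, and without the term its log2 fold change was -0.45 ± 0.24 (adjusted p = 0.980). In each of the 6 comparisons within a run, PRL was below untreated for NR2F1 (0.649- to 0.864-fold). Counted the same way, 8 of 31 receptor genes were above untreated in 6 of 6 comparisons (8.37% of all tested genes), namely RARA, VDR, PPARD, NR4A3, RXRA, RXRB, RARG and NR2F6. On the lower side were 4, namely NR4A2, NR2F1, NR6A1 and PPARA (6.05%). Some of these ratios were close to 1, with a lowest of 1.01 for RXRB, 1.02 for RARG and 1.04 for NR2F6. On the lower side, the highest ratio was 0.922 for NR6A1 and 0.901 for PPARA. DESeq2 called NR4A2 besides RARA and VDR (0.515% of all tested genes), and limma-voom called PPARD, NR4A3 and NR4A2 besides those 2 (0.656%).

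**Figure D4:**
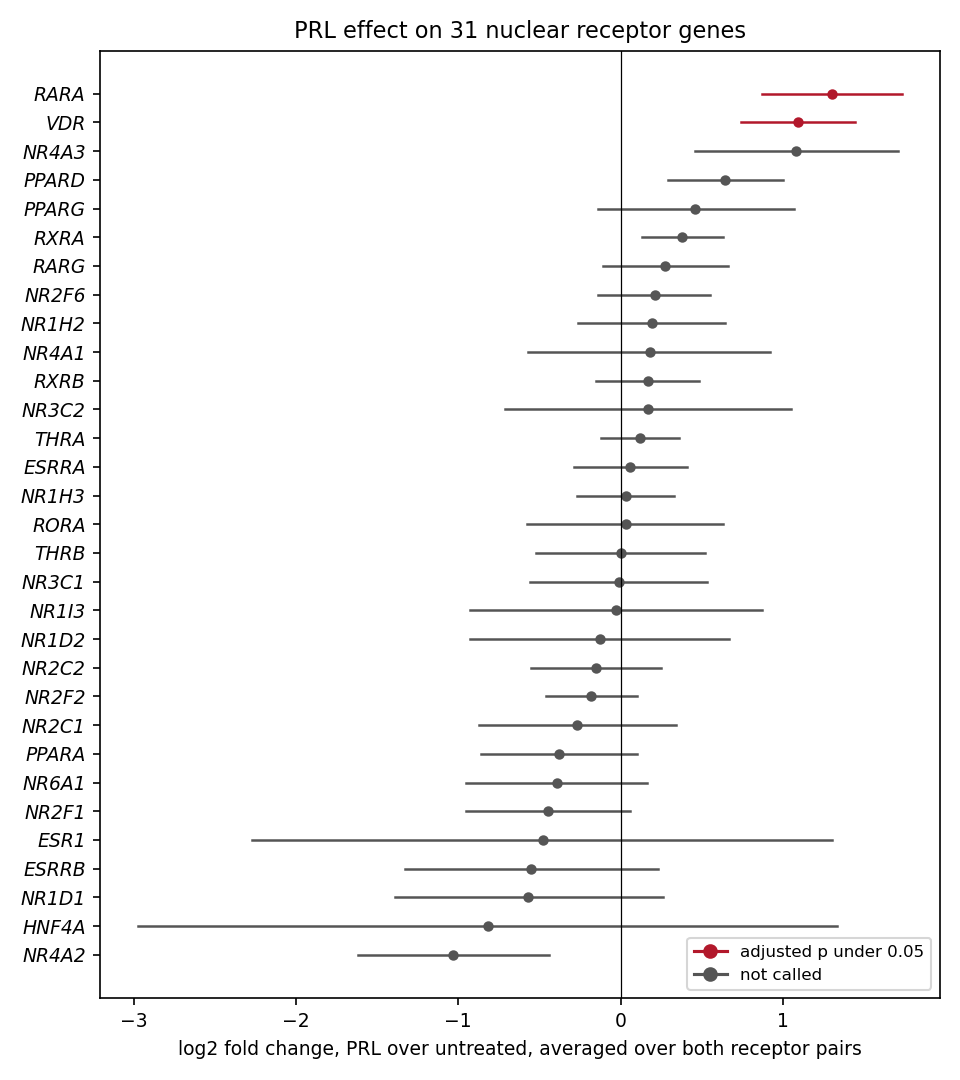
Averaged log2 fold change by PRL over untreated of the 31 tested receptor genes, with 95% intervals; red marks an adjusted p under 0.05. RARA (1.30) and VDR (1.09) are the called genes, and 16 genes lie above 0 and 15 below.

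The rest of the family was spread around 0. Of the 31 log2 fold changes, 16 were above 0 and 15 below, with a median of 0.03, beside -0.02 over all tested genes, of which 46.1% were above 0. The retinoic acid receptor RARG stood at 0.27 ± 0.18 (95% interval -0.11 to 0.66) and RXRB at 0.17 ± 0.14 (-0.15 to 0.48). The thyroid hormone receptors THRA and THRB stood at 0.12 ± 0.11 (-0.12 to 0.36) and -0.00 ± 0.24 (-0.52 to 0.52). Among the lipid receptors, PPARG stood at 0.46 ± 0.28 (-0.14 to 1.07), PPARA at -0.38 ± 0.22 (-0.86 to 0.10), NR1H2 at 0.19 ± 0.21 (-0.26 to 0.64) and NR1H3 at 0.03 ± 0.14 (-0.27 to 0.33). The glucocorticoid receptor NR3C1 stood at -0.01 ± 0.25 (-0.56 to 0.53). For THRA and NR1H3 these intervals exclude a doubling or a halving by PRL, and for NR1D1 (-0.57 ± 0.38; -1.39 to 0.26) and the rarely counted ESR1 and HNF4A they do not. Of the remaining 11 genes, ESRRB was lowest at -0.55 ± 0.36 and NR2F6 highest at 0.21 ± 0.16. The adjusted p of each of these genes was 0.980 or higher.

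Exons of several receptor genes overlap genes on the opposite strand, and no source used here states whether counting took strand into account. RARA shares 556 bases with RARA-AS1, which had 596 counts in all where RARA had 45213, and VDR shares 19 bases with AC121338.1, which had 12 counts where VDR had 43842. NR1D1 and THRA share 263 bases with each other. ESRRA shares 284 bases with TRMT112, which had 60364 counts where ESRRA had 66813. RXRB shares 244 bases with SLC39A7, with 103101 counts where RXRB had 46065. NR2C2 shares 1197 bases with MRPS25 and 155 with FGD5-AS1, with 4369 and 18898 counts where NR2C2 had 2750. NR1H3 shares 189 bases with ACP2, with 46464 counts where NR1H3 had 29919. How far reads of these neighbours enter the receptor levels was not tested. NR1I3 shares 661 bases, 20.0% of its exons, with TOMM40L, which had 7566 counts where NR1I3 had 186. The level of NR1I3, a receptor best known from liver, cannot be told apart from reads of that neighbour.

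Taken alone, the PRL response with the deleted I-tail and that with the intact I-tail each fell short of a call for any receptor gene (0 of 31 each, 0.0170% of all tested genes in each, edgeR quasi-likelihood). At an unadjusted p under 0.05, 6 receptor genes stood out with the deleted I-tail (1.79% of all tested genes) and 5 with the intact I-tail (2.55%). RARA stood at 1.34 ± 0.28 with the deleted and 1.26 ± 0.28 with the intact I-tail (adjusted p = 0.453 and 0.643). VDR stood at 0.99 ± 0.23 and 1.19 ± 0.23 (0.736 and 0.220), PPARD at 0.62 ± 0.23 and 0.67 ± 0.23, RXRA at 0.39 ± 0.17 and 0.36 ± 0.17, NR4A3 at 1.30 ± 0.41 and 0.86 ± 0.41, and NR4A2 at -1.09 ± 0.39 and -0.97 ± 0.39, in that order. DESeq2 called RARA with the deleted I-tail (0.113% of all tested genes) and RARA and VDR with the intact one (0.124%). With the term for title runs, RARA and VDR were called in each (0.322% with the deleted and 0.351% with the intact I-tail).

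The difference between the PRL responses, deleted minus intact, was tested as an interaction. By edgeR's quasi-likelihood test 0 of 31 receptor genes were called (0% of all tested genes), and 0 had an unadjusted p under 0.05 (0.718%). DESeq2 and limma-voom also called 0 (0% each). The difference was 0.08 ± 0.39 for RARA (95% interval -0.77 to 0.93) and -0.20 ± 0.32 for VDR (-0.89 to 0.48). It was -0.06 for PPARD (-0.76 to 0.64), 0.03 for RXRA (-0.48 to 0.54), 0.44 for NR4A3 (-0.81 to 1.69) and -0.13 for NR4A2 (-1.30 to 1.04). The interval for RXRA is the narrowest of these, and the intervals for RARA, PPARD and the NR4A genes still allow sizeable differences in either direction. The interval for VDR allows a sizeable difference mainly towards a weaker response with the deleted I-tail.

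**Figure D5:**
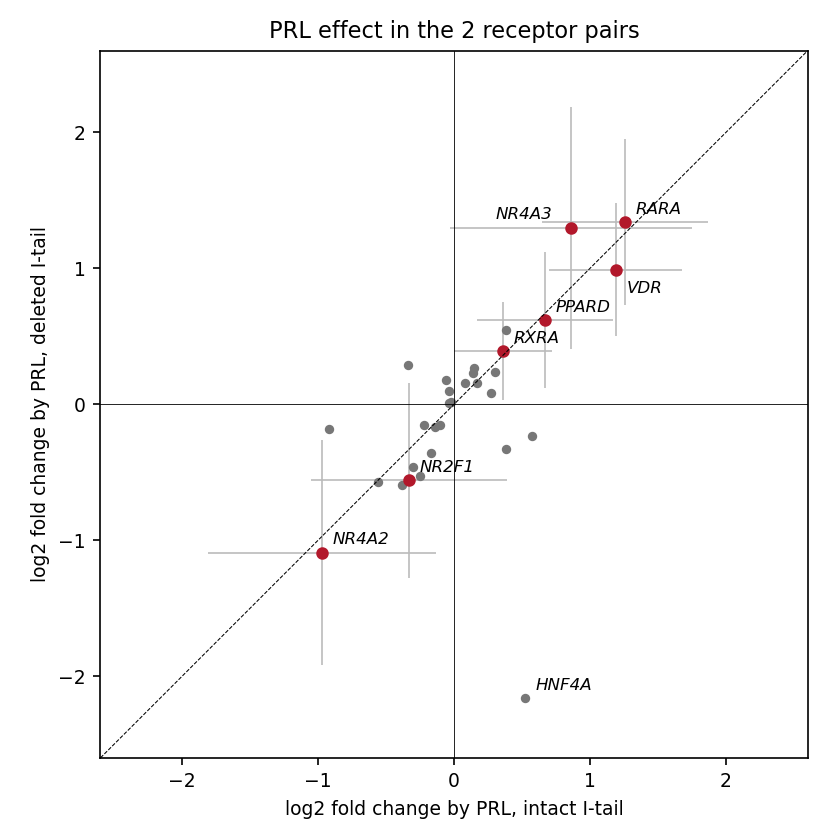
Log2 fold change by PRL with the deleted I-tail (vertical axis) against that with the intact I-tail (horizontal axis) for the 31 tested receptor genes; red points are the 7 genes shown by library, with 95% intervals, and the dashed line marks equal responses. RARA (1.34 and 1.26) and VDR (0.99 and 1.19) lie near the line, and HNF4A, counted in 9 of 12 libraries, lies far from it.

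No receptor gene passed the test for deletion of the I-tail. Averaged over PRL and untreated cells, 0 of 31 were called (0.00566% of all tested genes were) and 0 had an unadjusted p under 0.05 (2.28% did). In PRL-treated and in untreated cells taken alone, the counts were again 0 (0.00566% of all tested genes called in each, and 1.62% in PRL-treated and 0.837% in untreated cells at the unadjusted level). For the averaged deletion DESeq2 and limma-voom also called 0 receptor genes (0.0566% and 0.0453% of all tested genes). RARA stood at -0.24 ± 0.20 for the averaged deletion (95% interval -0.66 to 0.18), VDR at 0.05 ± 0.16 (-0.30 to 0.39), PPARD at -0.23 ± 0.16 (-0.58 to 0.12) and RXRA at -0.05 ± 0.12 (-0.30 to 0.20). NR4A2 stood at 0.23 ± 0.27 (-0.36 to 0.82), NR4A3 at 0.07 ± 0.29 (-0.56 to 0.69) and NR1H2 at -0.34 ± 0.21 (-0.79 to 0.10). The extremes were NR3C2 at 0.54 ± 0.41 and HNF4A at -1.66 ± 1.01, both with few counts (212 and 68 in all). In untreated cells the deleted I-tail libraries lay above the intact ones for NR4A2, NR6A1 and NR3C2 (3 of 31; 3.58% of all tested genes) and below them for ESRRB (1 of 31; 1.91%). NR6A1, the germ cell nuclear factor, had 3.23, 3.72 and 3.68 CPM in deleted untreated libraries, against 3.20, 1.49 and 2.78 CPM in intact untreated libraries, and after PRL these groups overlapped.

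Genes that the receptors are known to regulate, and the cofactors they recruit, were counted from short lists for averaged PRL. Among retinoic acid targets, 9 of 13 were tested and 0 passed. TGM2, a transglutaminase induced by retinoids, had the smallest p (1.79 ± 0.54, adjusted p = 0.639), with 13.8 to 109 CPM in PRL libraries, against 5.82 to 22.5 CPM in untreated libraries. HOXA5 was next, at -0.34 ± 0.16. Of the retinoid enzymes and carriers, 7 of 11 were tested and 0 passed, with RDH10, a retinol dehydrogenase, at -0.36 ± 0.22 and LRAT, which esterifies retinol, at 0.75 ± 0.50. Of the vitamin D targets, 9 of 14 were tested and 0 passed. CD14, an endotoxin co-receptor, stood at 0.64 ± 0.17 (adjusted p = 0.411), and CYP24A1, which degrades active vitamin D, at 0.59 ± 0.31, with 1.85 to 5.70 CPM in PRL libraries, against 0.993 to 3.77 CPM in untreated libraries. The medians of these 3 lists were -0.04, -0.14 and 0.20, beside -0.02 over all tested genes.

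Of the glucocorticoid targets, 15 of 16 were tested and 0 passed, with ERRFI1, an inhibitor of EGFR, at 0.50 ± 0.15 and TSC22D3, the leucine zipper GILZ, at -0.42 ± 0.13. Of the LXR and PPAR targets, 14 of 15 were tested and 0 passed, with MYLIP, which marks the LDL receptor for degradation, at -0.63 ± 0.21 and ANGPTL4, an inhibitor of lipoprotein lipase, at 0.75 ± 0.27. Of the estrogen targets, 7 of 10 were tested and 0 passed, with CCND1 at 0.44 ± 0.26 and XBP1 at 0.28 ± 0.16. The medians of these lists were 0.14, -0.03 and 0.21. With the term for title runs, CD14, ERRFI1 and ANGPTL4 passed, all higher (1.12% of all tested genes were called with it). All 25 coregulators were tested and 1 rose (0.119% of all tested genes were called), with a list median of -0.01. BCOR, a corepressor that also binds BCL6, had 94.7 to 164 CPM (median 149) in PRL libraries, against 67.5 to 79.8 CPM (median 75.2) in untreated libraries, with a log2 fold change of 0.88 ± 0.15 (edgeR quasi-likelihood with Benjamini-Hochberg, adjusted p = 0.0361). With the term for title runs, NRIP1 and PPRC1 were among the genes called beside BCOR, each higher after PRL, beside the same 1.12%.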

How the data were processed

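The authors deposited 1 table of raw counts, with Ensembl genes down and 12 libraries across. Per the labels, RNA was polyA-selected. Per the submitters' processing notes, STAR 2.7.9a, FastQC, featureCounts of Subread and build GRCh38 were used. Annotation release, strand setting and read filters: not given in the sources used here. Of 62703 entries, 1 without values was left out.

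Groups came from the genotype and treatment labels, and libraries are numbered in title order. The family members and the lists of targets, cofactors and markers were chosen with earlier results of these data known. Members called in a comparison, at an unadjusted p under 0.05 in an averaged effect or the interaction, or called with the title-run term are given by library. From each list, called genes and the 2 with the smallest p are named, except for a result that is not reported here. NR6A1, RARA against THRA, and NR4A1 by library were singled out after their values were seen.

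With edgeR 4.0.16 in R 4.3.3, filterByExpr retained 17677 genes. Scaling was TMM (CPM use the scaled total of the retained genes), and a robust quasi-likelihood model gave each group its own mean over all 12 libraries (8 residual degrees of freedom; common biological coefficient of variation 0.303). The F test of each of 7 contrasts was Benjamini-Hochberg adjusted across every tested gene. Log2 fold change over root F served as standard error. The median half-width of a 95% interval was 0.486 (log2) for an averaged effect and 0.971 for the interaction. Exon length and coordinates came from GENCODE 29.

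Other settings tried were scaling by RLE, upper quartile or library size; dropping the count filter or requiring 3 libraries with 10 counts and 1 CPM; DESeq2 1.42.0; quality-weighted voom of limma 3.58.1; the compared groups alone; a title-run term; and omission of each library in turn.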

Additional observations from a re-analysis of the deposited data

How the results depend on the processing

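The labels give no replicate numbers shared between groups, so pairing by them could not be made; the title-run term blocked libraries by runs of title numbers, which the labels do not call pairs. For averaged PRL, 2 of 31 receptor genes were called. Without the count filter 40 receptor genes were tested, and 4 of them were called. DESeq2 called 3, limma-voom 5, the fit with the title-run term 5, and fits with a library left out 0 to 2. All genes called were 21, with 124 without the filter, 91 by DESeq2, 116 by limma-voom, 198 with the title-run term and 11 to 27 without a library, the lowest without deleted untreated library 2 (11) or 1 (12). With the deleted I-tail, receptor genes called for PRL were 0, with 2 without the filter, 1 by DESeq2, 1 by limma-voom, 1 in the compared groups only (RARA) and 2 with the title-run term. All genes called there were 3, with 1 under library-size scaling, 33, 20 and 21 (no filter, DESeq2, limma-voom), 11 in the compared groups only, 57 with the title-run term and 1 to 5 without a library. With the intact I-tail, receptor genes called were 0, with 2 without the filter, 2 by DESeq2, 1 by limma-voom and 2 with the title-run term. All genes called there were 3, with 1 under library-size scaling, 46, 22 and 25 (no filter, DESeq2, limma-voom), 1 in the compared groups only, 62 with the title-run term and 1 to 4 without a library. For the averaged deletion, 1 gene was called, with 33, 10 and 8 (no filter, DESeq2, limma-voom), 11 with the title-run term and 1 to 2 without a library. For the deletion in PRL cells, 1 was called, with 0 under library-size scaling, 4, 2 and 2 (no filter, DESeq2, limma-voom), 0 in the compared groups only and 0 to 1 without a library. In untreated cells, 1 was called, with 0 under library-size scaling, 6, 4 and 5 (no filter, DESeq2, limma-voom), 0 in the compared groups only and 0 to 1 without a library. No receptor gene was called for the deletion or the interaction under any alternative run. The cause of these shifts was not tested.

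The 7 genes given by library kept their sign for averaged PRL under all 20 alternatives (19 for NR4A3, which the stricter filter left out), and 11 of 31 receptor genes, all uncalled, changed sign under at least 1. Scaling by library size alone moved the median of all genes by -0.10 for averaged PRL. Genes with few counts, such as ESR1 and HNF4A, have intervals too wide to show a doubling.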
